A study of Mus musculus with 6 samples.

Results

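Pdia3, Pdia4, Pdia6 and Calr, 4 of the 1375 genes in the authors' deposited table, encode enzymes and a chaperone that fold glycoproteins in the endoplasmic reticulum (ER). The genes were selected by name for this account, with their values in these mice known. The table itself was selected on the same contrast: every listed gene had a p-value below 0.05 in the authors' deposited table and a higher level in responders. Their responder to nonresponder differences are therefore descriptions, and no test of that contrast is given. The samples were prefrontal cortex (PFC) of male C57bl/6j siblings kept 3 to a cage, each given 10 mg/kg ketamine, an NMDA receptor antagonist, intraperitoneally 24 hours before the tissue was taken. There were 3 responders and 3 nonresponders, sorted by their behaviour in 2 tests, novelty suppressed feeding and forced swimming. No library came from an animal without ketamine, so the values compare treated mice with one another. PolyA RNA of the whole tissue was sequenced, and more RNA per cell cannot be told apart from more cells that express a gene.

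Secreted and membrane proteins enter the ER unfolded. Protein disulfide isomerases join, break and rearrange the bonds between their cysteines, while calreticulin and its membrane-bound relative calnexin hold proteins that carry a trimmed sugar chain until they are folded. Pdia3, also known as ERp57, works as the isomerase partner of both lectins, and Pdia6 (P5) and Pdia4 (ERp72) act more broadly with the ER chaperone BiP. Calr also buffers calcium in the ER lumen, and with Pdia3 takes part in loading peptides on MHC class I molecules. When unfolded proteins build up, the transcription factors ATF6 and XBP1 raise many of these genes through the ER stress element, a CCAAT box separated by 9 bases from CCACG.

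The active site of the isomerases is a Cys-Gly-His-Cys motif, and its codons are shown because they set the 3 enzymes apart from Calr, which has none. Over mouse coding sequences of GENCODE release M21 (GRCm38, the mm10 build), 37 of 21523 genes held this motif in frame, and 8 of the 37 were in the list of 21 isomerase family genes. Pdia4 had 3 such sites, Pdia3 and Pdia6 had 2 each. The coding strand is given 5′ to 3′, with the codons of the motif in capitals and the 15 bases on either side in lower case.
Pdia3 site 1: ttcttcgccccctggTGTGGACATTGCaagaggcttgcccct
Pdia3 site 2: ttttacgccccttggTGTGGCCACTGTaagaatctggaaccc
Pdia4 site 1: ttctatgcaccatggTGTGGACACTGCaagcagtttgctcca
Pdia4 site 2: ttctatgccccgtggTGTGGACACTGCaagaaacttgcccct
Pdia4 site 3: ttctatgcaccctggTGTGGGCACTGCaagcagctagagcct
Pdia6 site 1: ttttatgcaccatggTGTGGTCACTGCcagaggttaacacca
Pdia6 site 2: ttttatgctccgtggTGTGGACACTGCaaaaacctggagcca
The capitals were identical in Pdia4 site 1, Pdia4 site 2 and Pdia6 site 2. Over all 42 bases, Pdia3 site 1 and Pdia4 site 2 shared 36 bases, the most of any pair. Codons 57 to 60 of Pdia3, 87 to 90 of Pdia4 and 60 to 63 of Pdia6 hold the motif nearest the start of each protein. Pdia3 site 2 lies within exon 10 on chr2:121434852-121434893 on the plus strand, and Pdia4 site 3 within exon 10 on chr6:47796737-47796778 on the minus strand. Each of the other sites is read across the junction of 2 exons.

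The last codons carry the signal by which KDEL receptors bring such proteins back from the Golgi. They are shown because the 4 proteins differ there. Capitals mark the last codons before the stop.
Pdia3 end: aagaagaagaaggcaCAAGAGGACCTCtaa
Pdia4 end: aagaggagcaggaccAAGGAAGAGCTTtaa
Pdia6 end: ctggatgacctggagAAGGATGAGTTGtga
Calr end: tcccctggccaagccAAGGATGAGCTGtag
Pdia6 and Calr spell Lys-Asp-Glu-Leu there, as 11 of 21523 genes did, whereas Pdia3 and Pdia4 spell variants of it. The coding sequences had 505 codons in Pdia3, 641 in Pdia4, 445 in Pdia6 and 416 in Calr, without the stop. Of the last 60 codons of Calr, 61.7% encode acidic residues, the low-affinity calcium-binding tail, against 25.7% over its whole length.

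The promoters were searched because these genes were higher together. Within RefSeq windows (GRCm38.p6) from 250 bases before to 50 after each start, and on both strands, the exact ER stress element was present in Pdia6 and Calr. With at most 1 of its 10 fixed bases changed, a setting added after the data were seen, it was present in all 4. Of 32544 mouse promoter windows, 0.120% held the exact element and 1.51% held it with up to 1 base changed. Among the 1005 listed genes with a window, the shares of genes were 0.796% and 3.58%. Shares of genes and shares of windows are unlike units here and below, since a gene with several windows counts if any matches. The 4 sites are aligned below, each read 5′ to 3′ on the plus strand of the genome, with the matching fixed bases in capitals and 5 bases on either side.
Pdia6, chr12:17266486-17266514: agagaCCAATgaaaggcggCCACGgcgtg
Calr, chr8:84847070-84847098: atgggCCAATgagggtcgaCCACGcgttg
Pdia3, chr2:121413868-121413896: cgcagCCAATcggcggctgCCACactgcg
Pdia4, chr6:47813597-47813625: gaccaCCAATcacgggctgCCACtcggtt
In Pdia3 and Pdia4 the changed base was the last of the element. The element runs with the gene in Pdia3 and Pdia6, and against it in Pdia4 and Calr. Counted from the RefSeq start, it spans positions -98 to -80 in Pdia6, -162 to -144 in Calr, -108 to -90 in Pdia4 and -29 to -11 in Pdia3. The deposited gene model of Pdia3 starts 127 bases upstream of the RefSeq start, so its site lies inside the deposited gene. The shorter ER stress element ATTGG, any 1 base, then CCACG, found in 0.0369% of windows, and the core of the unfolded protein response element, TGACG followed by TGG, found in 0.682%, were in none of the 4. CCACG alone was in 33.0% of windows, in 50.1% of the listed genes with a window and in 3 of the 4 genes. CCAAT alone was in 37.4% of windows, in 47.7% of those listed genes and in all 4.

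The promoters of the genes with an exact element are given with its fixed bases in capitals, on the gene's own strand and up to the deposited 5′ end.
Pdia6, chr12:17266339-17266544, plus strand: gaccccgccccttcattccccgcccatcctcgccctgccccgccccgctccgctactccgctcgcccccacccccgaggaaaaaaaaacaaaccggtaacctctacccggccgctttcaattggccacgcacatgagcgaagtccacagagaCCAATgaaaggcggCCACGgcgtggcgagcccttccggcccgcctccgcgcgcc
Calr, chr8:84846935-84847181, minus strand: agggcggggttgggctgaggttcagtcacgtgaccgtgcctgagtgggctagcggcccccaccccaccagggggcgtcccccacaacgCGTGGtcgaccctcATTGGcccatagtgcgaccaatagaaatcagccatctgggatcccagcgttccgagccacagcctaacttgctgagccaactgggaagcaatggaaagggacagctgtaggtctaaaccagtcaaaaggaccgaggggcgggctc
Among 36 genes of 11 lists of ER functions that were in the table, 31 had a promoter window, and 7 of these held the exact element. They were Calr, Canx, Creld2, Dnajc3, Hsp90b1, Hspa5 and Pdia6. A match of letters is a description and not a binding site.

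**Figure D1:**
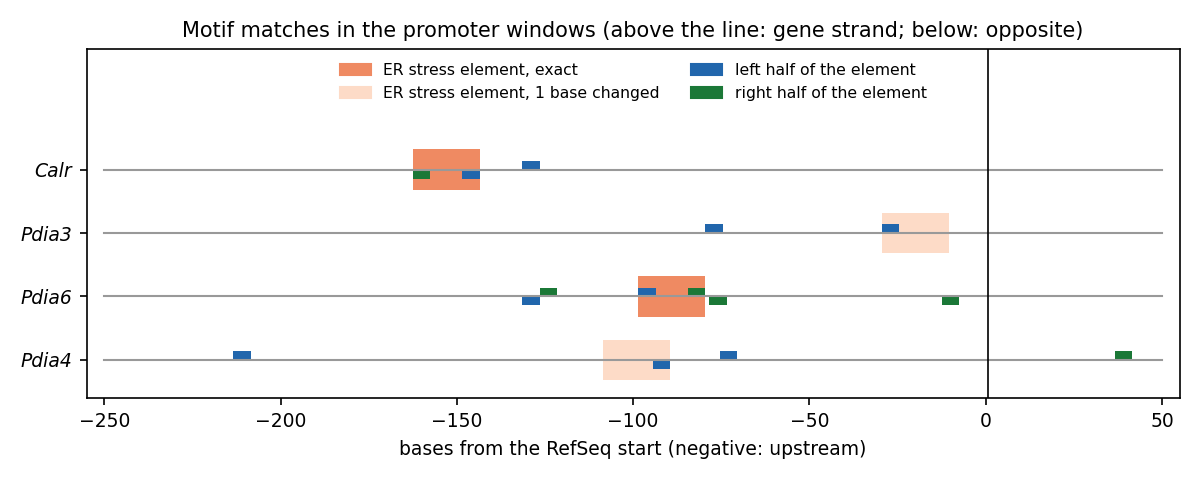
Motif matches along the promoter windows, in bases from the RefSeq start, with the whole ER stress element as orange boxes, exact in Calr and Pdia6 and pale where 1 base was changed, in Pdia3 and Pdia4. Blue marks CCAAT and green marks CCACG, above the line on the strand of the gene and below it on the opposite strand.

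All 4 genes were higher in the 3 responders than in the 3 nonresponders, and in none did the groups overlap. Such separation held in 1010 of the 1375 listed genes (73.5%), so it is usual in this table. Adjusted p-values, as given by the authors' deposited table, were 0.00425 for Pdia6, 0.0130 for Pdia3, 0.0195 for Pdia4 and 0.0315 for Calr. All 4 stood below 0.05, as did 19 of the 1375 listed genes (1.38%). Nothing is read from either count, since both come from the contrast that chose the table. At that edge the authors' deposited table holds Igfbp2, at 0.0460, as the last gene inside and Calb1, at 0.0541, as the first outside. Levels below are the authors' FPKM (fragments per kilobase of gene, scaled to the depth of the library).

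Calr, the lectin chaperone, had the highest level of the 4. It stood at 152, 151 and 131 FPKM in responder replicates 1, 2 and 3, against 110, 103 and 102 FPKM in nonresponder replicates 1, 2 and 3. The means were 145 ± 11.5 FPKM in responders and 105 ± 4.28 FPKM in nonresponders (SD, n = 3 each), a ratio of 1.38. Responder replicate 3 was the lowest responder here, and still 21.8 FPKM above the highest nonresponder. That gap rests on the authors' scale per library. Before scaling, Calr had 5667 reads in responder replicate 3 and 5895 in nonresponder replicate 1. The scale of responder replicate 3 was the smallest, at 14981505 reads, against 17175438 to 19298950 in nonresponders. Between 5072 and 8016 reads per library covered the gene, a counting error of 1.12% to 1.40%, smaller than the spread between mice. Calr lies on chr8:84841850-84846934, minus strand (ENSMUSG00000003814), with 9 exons in its longest coding transcript.

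Pdia3, the partner isomerase of calreticulin and calnexin, stood at 79.3, 82.2 and 94.0 FPKM in responders, against 61.7, 54.4 and 56.7 FPKM in nonresponders (replicates 1, 2 and 3 of each). Its fold of 1.48 had a range of 1.29 (lowest responder over highest nonresponder) to 1.73 (highest over lowest). Responder replicate 3 was the highest library, the reverse of Calr. Pdia3 lies on chr2:121413775-121438687, plus strand (ENSMUSG00000027248). It overlaps Catsper2, on the opposite strand and not in the table, by 18 bases.

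Pdia6, an isomerase that binds BiP, showed the largest ratio of the 4, at 1.69. It stood at 36.8, 36.5 and 50.8 FPKM in responders, against 25.3, 23.5 and 24.5 FPKM in nonresponders (replicates 1, 2 and 3 of each). Responder replicate 3 stood well above the other responders, at 1.39 times their mean, and without it Pdia4 had the largest ratio. The SD was 19.7% of the mean among responders and 3.62% among nonresponders. Pdia6 lies on chr12:17266545-17284770, plus strand (ENSMUSG00000020571), and overlaps Atp6v1c2 on the opposite strand by 50 bases; the strand setting of the counting is not given in the sources used here.

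Pdia4, the isomerase with the extra active site, was the lowest of the 4, at 24.4, 21.4 and 19.4 FPKM in responders, against 14.8, 12.4 and 14.3 FPKM in nonresponders (replicates 1, 2 and 3 of each). Its ratio was 1.57, with a range over single mice of 1.31 to 1.97. Responder replicate 3 was again the lowest responder, as for Calr, and without it the ratio was 1.65. With 510 to 1073 reads per library, the counting error of Pdia4 was 3.05% to 4.43%, the widest of the 4. Pdia4 lies on chr6:47796141-47813430, minus strand (ENSMUSG00000025823), and Mir704 lies within it.

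**Figure D2:**
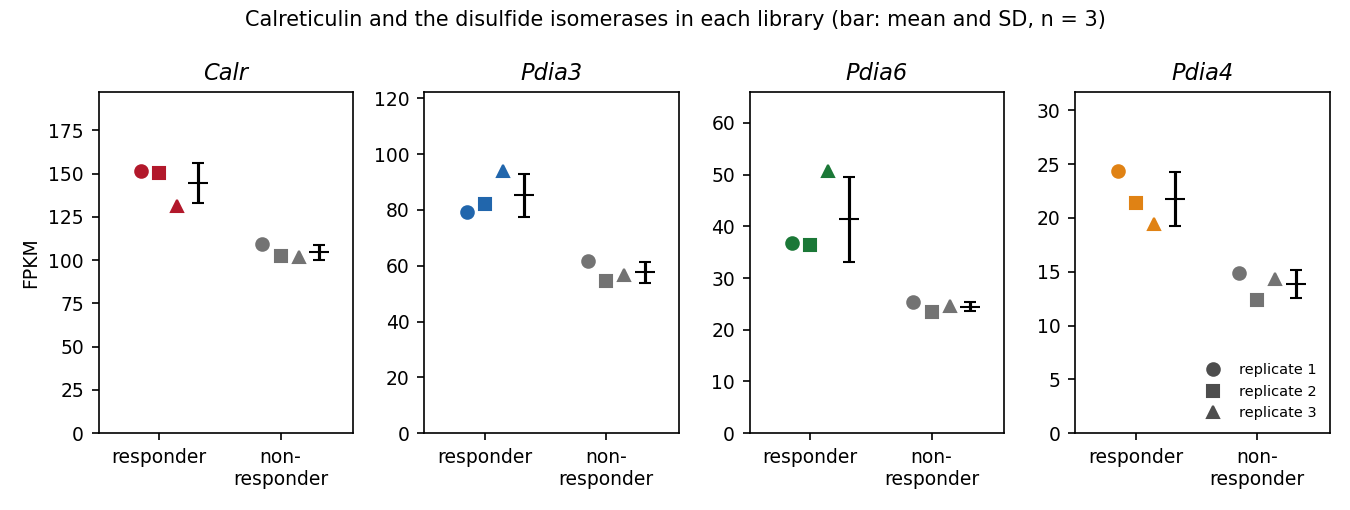
FPKM of each gene in each library, responders on the left (coloured) and nonresponders on the right (grey), with the group mean and SD (n = 3). No groups overlap, and responder replicate 3 (triangle) is the highest responder for Pdia3 and Pdia6 but the lowest for Calr and Pdia4.

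On the log2 scale the difference, responders minus nonresponders, was 0.47 ± 0.08 for Calr, 0.56 ± 0.09 for Pdia3, 0.65 ± 0.12 for Pdia4 and 0.76 ± 0.16 for Pdia6 (± SE over n = 3 each). The ranges over single mice overlapped between every pair of the 4 genes, from 1.20 to 1.49 times for Calr to 1.44 to 2.16 times for Pdia6. These ranges leave out that the 4 were measured in the same libraries, and their ratios within each library are given below. The median of the 4 was 0.61, and that of all listed genes with a ratio was 0.57. With group medians in place of means the median of the 4 was 0.57 (0.54 for Pdia3 to 0.59 for Pdia6), while that of all listed genes was 0.34. Without responder replicate 3 the median of the 4 was 0.56, while that of all listed genes was 0.26. The 4 differences then stood at percentiles 82.2 to 89.8 of the listed genes, in place of 31.8 to 73.3 with all 6 libraries. That library was the highest responder in 87.6% of listed genes, so leaving it out lowers the table as a whole. The 4 were also chosen with their values known, so nothing is read from these percentiles or from those below. When each library was scaled on the listed genes themselves, which puts their own median difference near 0 (TMM), all 4 differences were positive but smaller, at 0.01 for Calr, 0.07 for Pdia3, 0.20 for Pdia4 and 0.23 for Pdia6, and the groups then overlapped in all but Pdia6.

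Over the whole table, responder replicate 3 differed from the other 5 libraries. It was the highest library in 1204 of 1375 listed genes (87.6%), and its median log2 ratio to the mean of the nonresponders was 1.02, compared with 0.23 and 0.31 in responder replicates 1 and 2. Its 4 genes did not follow one rule: Pdia6 stood at 1.05, near that median, Pdia3 at 0.71, Pdia4 at 0.49 and Calr at 0.33. Calr was thereby at percentile 4.94 of the listed genes in that library, and Pdia4 at 12.1. In responder replicates 1 and 2 all 4 stood at percentile 80.9 or above. Being the lowest responder in that library, as Calr and Pdia4 were, held for 82 of 1375 listed genes (5.96%) and for 6 of the 19 that the authors' deposited table puts below an adjusted p of 0.05. The other 4 of those 6 were Dio2, Hspa1b, Kcnj2 and Sdf2l1, named after their values were seen. What sets that library apart was not tested.

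**Figure D3:**
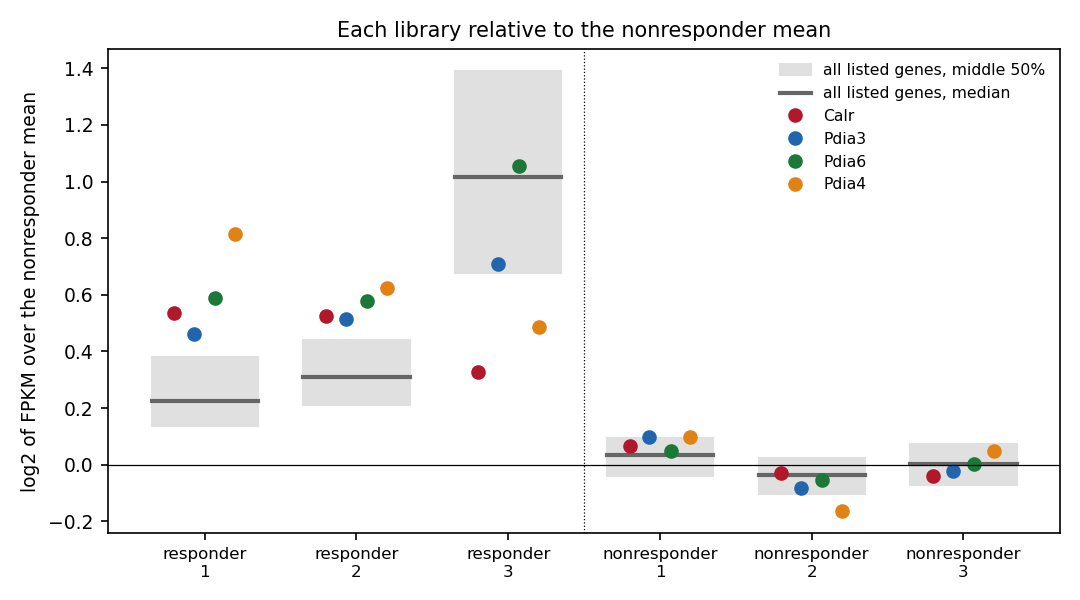
Level of each gene in each library on the log2 scale, relative to the nonresponder mean, with the middle 50% (grey box) and median (grey line) of all listed genes in the same library. In responder replicates 1 and 2 the 4 genes lie above the box, and in replicate 3 Pdia6 and Pdia3 lie inside it while Pdia4 and Calr lie below it.

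Within every library the levels per length had the same order, Calr, Pdia3, Pdia6 and Pdia4, and within each group no neighbours in that order overlapped. The summed level of the 4 was 293 ± 2.48 FPKM in responders and 201 ± 9.68 FPKM in nonresponders (SD, n = 3 each). The sum was thus even among responders (291 to 296 FPKM), although its parts were not. As a share of the reads of listed genes it was not even. The 4 held 0.657%, 0.591% and 0.391% in responder replicates 1, 2 and 3, against 0.492% to 0.529% in nonresponders. The ratio of Calr to Pdia6 was 4.12 and 4.13 in responder replicates 1 and 2 and 2.59 in replicate 3, against 4.16 to 4.36 in nonresponders. The ratio of Pdia6 to Pdia4 was 1.51, 1.71 and 2.62 in responder replicates 1, 2 and 3, against 1.70 to 1.90 in nonresponders. Of the 6 pairs, Calr and Pdia4 had the smallest SD over mean among responders, at 6.22 to 7.05, against 7.10 to 8.28 in nonresponders. The ratio of Pdia3 to Pdia6 was 1.85 to 2.25 in responders and 2.31 to 2.44 in nonresponders. Ratios of Calr to Pdia6, Calr to Pdia4 and Pdia3 to Pdia6 were thus lower in every responder, by narrow gaps. Those of the remaining pairs overlapped between groups. The deposited gene lengths exceed the longest coding transcript by 1.72 times in Pdia6, 1.32 in Calr and 1.13 in Pdia3. Per length of that transcript the responder means would be 191 for Calr, 96.5 for Pdia3, 71.2 for Pdia6 and 21.7 for Pdia4, in the same order.

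Set against Hspa5, which encodes BiP, the main ER chaperone, the proportions of Pdia6 and Pdia4 overlapped between the groups, and that of Calr did not. The ratio of Pdia6 to Hspa5 was 0.437 ± 0.0914 in responders and 0.441 ± 0.0184 in nonresponders, and that of Pdia4 0.229 ± 0.0219 in responders and 0.250 ± 0.0204 in nonresponders (SD, n = 3 each). The ratio of Calr to Hspa5 was 1.53 ± 0.109 in responders and 1.89 ± 0.0379 in nonresponders, with no overlap (1.40 to 1.61 against 1.85 to 1.92). Calr thus stood higher in responders by a smaller factor than BiP. Pdia3 stood at 0.901 ± 0.0958 of Hspa5 in responders and 1.04 ± 0.0296 in nonresponders, with the highest responder just under the lowest nonresponder. Hspa5 had the smallest p-value of all genes in the authors' deposited table, and its ratio of 1.71 was above those of the 4. Lower mean proportions in responders follow from that reference. With 3 mice against 3 these orders are descriptions.

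Of 21 genes of the isomerase family, 7 were in the table. The authors' deposited table puts 3 of them (Pdia3, Pdia4 and Pdia6) below an adjusted p of 0.05, and the groups were separate in 6. Over all listed genes these shares were 1.38% and 73.5%, and both come from the contrast that chose the table. The median log2 difference of the 7 was 0.44, and 0.35 with responder replicate 3 left out. Erp44, which retrieves unassembled proteins from the early secretory pathway, stood at 10.2, 12.2 and 13.5 FPKM in responders, against 8.63, 8.93 and 8.85 FPKM in nonresponders. Its adjusted p, from the authors' deposited table, was 0.160. P4hb, the founding isomerase PDI, which was named after its values were seen, stood at 32.7, 32.8 and 37.5 FPKM in responders, against 30.2, 27.0 and 27.9 FPKM in nonresponders. Its ratio of 1.21 was the smallest of the 7, and the authors' deposited table gives an adjusted p of 0.295. Family members outside the table have no value here.

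Of 16 genes of the calnexin and calreticulin cycle, 5 were listed, all with separate groups, against 73.5% of all genes in the table. The median of their log2 differences was 0.47, and 0.28 with responder replicate 3 left out. By the authors' deposited table, Calr and Pdia3 were the 2 with an adjusted p below 0.05, against 1.38% of all its genes. Canx, the membrane-bound lectin calnexin, stood at 96.5 ± 9.47 FPKM in responders and 75.4 ± 2.40 FPKM in nonresponders (SD, n = 3 each), a ratio of 1.28. The authors' deposited table gives it an adjusted p of 0.153. Mcfd2, part of a cargo receptor for export of glycoproteins, had a ratio of 1.31, a log2 difference of 0.39 that was 0.25 without that library.

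The BiP and GRP94 chaperone system had 10 of 17 genes listed, 9 with separate groups and 5 that the authors' deposited table puts below an adjusted p of 0.05, where all its genes gave 73.5% and 1.38%. The median of their log2 differences was 0.65, and 0.48 with responder replicate 3 left out. Hspa5 had 97.0, 93.4 and 93.5 FPKM in responders, against 59.4, 54.0 and 53.1 FPKM in nonresponders. Responder replicate 3 thus lay between the other responders for Hspa5. Manf, an ER stress protein, had a ratio of 1.89, Dnajb11, a BiP cochaperone, 1.44, and Hsp90b1, the ER Hsp90, 1.45. Of the unfolded protein response list 1 of 15 genes was in the table, Xbp1, whose product acts on the ER stress element, at a ratio of 1.64.

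Of the genes listed under other ER functions, the authors' deposited table puts none below an adjusted p of 0.05. Of 12 oligosaccharyltransferase genes, which attach the sugar chains, 5 were listed; the median of their log2 differences was 0.53, and 0.30 with responder replicate 3 left out. Ostc stood at 12.6, 12.6 and 29.1 FPKM in responders, against 9.05, 8.80 and 9.62 FPKM in nonresponders, so that its log2 difference of 0.98 was 0.46 without replicate 3. Ost4, Tusc3 and Rpn1 had ratios of 1.91, 1.45 and 1.32. Without that library Ost4 had a log2 difference of 0.42 in place of 0.93, and Tusc3 0.13 in place of 0.53. Of 15 genes of the translocon and signal peptidase, 5 were listed, with a median of 0.37, or 0.17 without that library. Spcs2, Spcs3, Sec61b and Sec62 had ratios of 1.58, 1.29, 1.72 and 1.26. Without it Spcs2 had a log2 difference of 0.35 in place of 0.66, Sec61b 0.16 in place of 0.78 and Sec62 0.16 in place of 0.34.

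Of 20 genes of ER-associated degradation, Selenos was in the table at a ratio of 1.87. Of 11 ER redox genes, Gpx8, a low-abundance peroxidase that feeds oxidation of PDI, was in it, at 2.14 ± 1.09 FPKM in responders and 0.831 ± 0.329 FPKM in nonresponders (SD, n = 3 each). The oxidases of the Ero1 family were not in the table. Of 12 ER calcium genes Tmco1 was listed, at a ratio of 1.55, and of 8 partners in MHC class I loading B2m, at 1.49 with overlapping groups. On the log2 scale the differences of these genes changed by over 1.5 times without responder replicate 3. The log2 difference was then 0.45 in place of 0.91 for Selenos, 0.88 in place of 1.37 for Gpx8, 0.23 in place of 0.64 for Tmco1 and 0.13 in place of 0.57 for B2m. None of the 3 KDEL receptors was in the table.

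**Figure D4:**
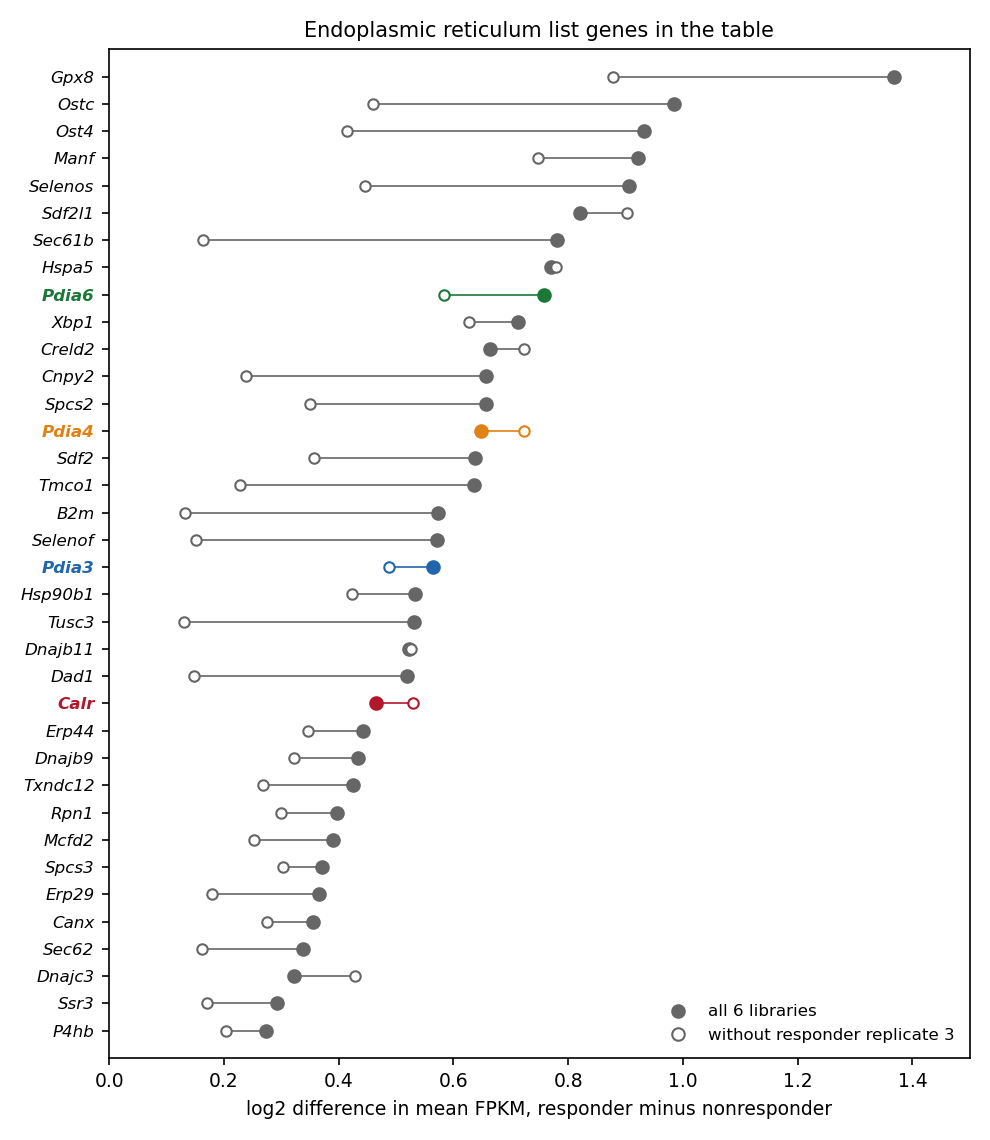
Log2 difference in mean FPKM, responder minus nonresponder, of the 36 genes of the ER lists found in the table, with all 6 libraries (filled) and without responder replicate 3 (open). For 7 genes, Calr and Pdia4 among them, the difference is larger without that library, and for the other genes it is smaller.

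Leaving out responder replicate 3 enlarged the log2 difference in 7 of these 36 genes, and in 118 of all 1358 listed genes with a ratio (8.69%). The 7 were Calr, Pdia4, Hspa5, Dnajb11, Sdf2l1, Creld2 and Dnajc3, the last 3 named after their values were seen. Pdia4 then had a difference of 0.72 in place of 0.65 and Calr 0.53 in place of 0.47. Sdf2l1 had 0.90 in place of 0.82, Creld2 0.72 in place of 0.66 and Dnajc3 0.43 in place of 0.32. Hspa5, at 0.78 in place of 0.77, and Dnajb11, at 0.53 in place of 0.52, hardly changed. Pdia6 had 0.58 in place of 0.76 and Pdia3 0.49 in place of 0.56.

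The genes whose profile over the 6 libraries was most like the mean of the 4 were taken by the root mean square difference of log2 FPKM, each gene centred on its own mean. Among 684 genes at or above the median level of the table, the nearest were Dnajb11 at 0.067, Scg2 at 0.074, Xbp1 at 0.093, Hspa5 and Mageh1 at 0.095 and Chordc1 at 0.096, against a median of 0.26. Scg2 encodes a dense core vesicle protein and stood at 109, 115 and 126 FPKM in responders, against 87.4, 77.9 and 74.2 FPKM in nonresponders. The 4 genes were not all close to one another: Pdia4 and Calr differed by 0.12 and Pdia3 and Pdia6 by 0.13, whereas Pdia6 and Calr differed by 0.26 and Pdia4 and Pdia6 by 0.25. Taken singly, each of the 4 was nearer to a gene outside them than to any of the others. Pdia3 was nearest to Scg2 and Calr to Stip1, both at 0.045, Pdia4 to Dio2 at 0.078 and Pdia6 to Xbp1 at 0.084. The table was chosen on these libraries, so all its genes share the step between groups.

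Markers of some cell types were also among the listed genes. As listed genes they had been chosen as higher in responders, so their higher sums there follow from that choice. Markers outside the table have no value here. Of 7 astrocyte markers 3 were listed, with a summed level of 56.5 to 71.1 FPKM in responders and 33.3 to 49.3 FPKM in nonresponders. Of 9 microglia markers 5 were listed. They summed to 95.0, 96.7 and 192 FPKM in responder replicates 1, 2 and 3, against 72.1 to 84.6 FPKM in nonresponders. Without responder replicate 3 their median log2 difference was 0.31 in place of 0.66. That of the listed astrocyte markers was 0.59 in place of 0.72. Of 7 leptomeningeal fibroblast markers 5 were listed, summing to 12.5 to 19.3 FPKM in responders and 7.45 to 8.98 FPKM in nonresponders. Their median log2 difference was 0.77 without responder replicate 3, in place of 1.04. Most of the sum was Igfbp2, with means of 10.3 FPKM in responders and 6.33 FPKM in nonresponders. The rest were low, at group means of 0.184 to 1.70 FPKM, and the groups overlapped in Ogn. Of 4 choroid plexus markers only Kl was listed, at 0.525 to 0.538 FPKM in responders and 0.256 to 0.474 FPKM in nonresponders. None of the 7 neuron, 7 oligodendrocyte and 6 endothelial and pericyte markers was listed, so the tissue label could not be checked on them. Their part in the levels of the 4 genes was not tested.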

How the data were processed

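Whole read counts and FPKM values per library, log2 fold changes, p-values and adjusted p-values were deposited by the authors for 1375 genes, per the file headers. The deposited log2 fold change runs nonresponder over responder; all ratios here run the other way. The authors' FPKM equalled the deposited count over deposited gene length and 1 scale per library (14981505 to 19298950 reads). The build is mm10 per the submitters' processing notes; no aligner, counter, strand setting or test is named in them or the labels. Depth over all genes is unknown; the listed genes held 1989534 to 3486903 reads per library. In the table, 6 columns of per-sample values match no label and were not used. Counting errors cover counting alone.

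Group means, SD and log2 ratios of means were computed with pandas 2.3.3 without pseudocount. Alternatives were TMM (edgeR 4.0.16), DESeq2 1.42.0 size factors and shares over listed reads, log2(FPKM + 1), medians, a replicate block, a filter at 1 FPKM and leaving out each mouse. Calculations were checked on simulated data. The 4 genes and all gene lists (11 of ER functions, 7 of markers) were chosen with earlier results of these data known. Named were the 4 genes, the 6 nearest profiles and up to 4 genes per list by smallest deposited p-value. Promoters are from RefSeq (GRCm38.p6; all 4 genes matched), coding sequences and exons from GENCODE M21, where all 4 genes had the table's positions. The planned description of proteins was made from codons. RNA was taken from each mouse separately, per the labels' protocols, so the spread is between mice.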

Additional observations from a re-analysis of the deposited data

How the results depend on the processing

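The results are descriptions with no test. For each of the 4 genes the sign was kept in every setting run. The scales computed over the listed genes moved the values by more than 1 SD between replicates, by construction, as all listed genes had been chosen as higher in responders. With TMM the log2 differences were 0.067 for Pdia3, 0.20 for Pdia4, 0.23 for Pdia6 and 0.011 for Calr, with medians of 0.13 for the 4 and 0.0059 for all listed genes. With DESeq2 size factors they were 0.071, 0.20, 0.24 and 0.014, with medians of 0.14 and 0.012. With shares of listed reads they were 0.098, 0.23, 0.26 and 0.042, with medians of 0.17 and 0.039. With TMM, 97 listed genes had every responder above every nonresponder, in place of 1010. Leaving out each replicate in turn gave 0.49 to 0.62 for Pdia3, 0.56 to 0.72 for Pdia4, 0.58 to 0.84 for Pdia6, 0.43 to 0.53 for Calr, 0.55 to 0.66 for the median of the 4, 0.26 to 0.71 for that of all listed genes and 1019 to 1206 separated genes. With the replicate block (mean of same-number log2 ratios) the values were 0.56, 0.65, 0.74 and 0.46. For same-numbered mice, deviations from the group means correlated at -0.06, -0.06 and -0.03, and no responder correlated best with its own number. Whether same-numbered mice shared more than a number, such as a cage or processing, cannot be decided from these correlations. They rest on few mice per group and on genes chosen by the contrast between these libraries.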

Other observations

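Of the 11 mouse genes whose longest coding sequence ends in Lys-Asp-Glu-Leu, 5 were in the table. The table held 1375 genes in all, and 21523 genes had a complete coding sequence. How many genes were expressed or tested is not known, so nothing is read from that count. The 5 were Calr, Pdia6, Hspa5, Hsp90b1 and P4hb, and this grouping was made after their values were seen. Their ratios, responders over nonresponders, were 1.38, 1.69, 1.71, 1.45 and 1.21 in that order, and in all 5 every responder stood above every nonresponder, as in 73.5% of listed genes.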
